A study of Homo sapiens with 12 samples.

Results

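The genes described here are 9 members of the NRF2 antioxidant pathway: NFE2L2, KEAP1, TXNRD1, TXN, PRDX1, SRXN1, GCLC, GCLM and HMOX1. All probe sets that the array annotation maps to exactly 1 of these genes were taken, which gave 17 of the 54675 probe sets on the array; 1 further probe set that lists NFE2L2 together with another gene was not used. At least 1 probe set of each gene, and 14 of the 17 probe sets in all, averaged 4 or more on the log2 scale across the 12 arrays, which testing required. The other 3, 1 further probe set each for NFE2L2, TXNRD1 and GCLC, lay between 2.16 and 2.37 on every array and were not tested. The brightest probe set stood for its gene, and 10791 of the 19775 genes with a probe set of their own were tested together.

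NRF2, the transcription factor encoded by NFE2L2, is held in the cytoplasm by KEAP1, an adaptor of a cullin 3 ubiquitin ligase that sends it for degradation. When reactive compounds modify cysteines of KEAP1, NRF2 accumulates, pairs with small MAF proteins and binds antioxidant response elements of genes for thioredoxin and glutathione metabolism, detoxification and haem breakdown. This control acts mainly on the NRF2 protein, which arrays do not measure. In the kidney the proximal tubule handles many drugs and toxins, and NRF2 targets are common readouts of chemical stress there.

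Messenger RNA was measured in HK-2 cells, an immortalised cell line of human proximal tubular epithelium. The 4 groups of 3 arrays were Aa at a low dose for 24 h, vehicle control for 24 h, Aa at a low dose for 48 h and vehicle control for 48 h. All cells shared a medium with EGF, hydrocortisone, insulin, transferrin and selenite, and were treated near confluence. The sources used here do not spell out Aa, its dose or the vehicle. Replicates are described as biological, with no word on separate cultures, so a p-value covers only the spread seen among these arrays. The numbers 1 to 3 in the labels acted as pairs across groups, and the Aa array minus the control array of the same number and time is called a pair difference.

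Of the proximal tubule markers, SLC3A1, CDH6 and PAX8 passed the filter, 3 of the 9 with a probe set; LRP2, CUBN, AQP1, GGT1, ANPEP and SLC34A1 did not. All 5 epithelial markers passed it, as did 2 of 6 fibroblast markers (COL1A1 and DCN), 0 of 4 endothelial, 0 of 3 leukocyte and 0 of 4 distal nephron markers. The mean log2 value of the 3 proximal tubule markers was 9.93 to 10.55 on the Aa arrays and 10.63 to 11.06 on the control arrays at 24 h, and 9.31 to 10.28 with Aa and 10.78 to 11.21 in controls at 48 h. The 2 fibroblast markers averaged 9.39 to 9.95 with Aa and 10.00 to 10.52 in controls at 24 h, and 9.54 to 10.13 with Aa and 9.75 to 10.09 in controls at 48 h. The 5 epithelial markers averaged 11.15 to 11.31 with Aa and 11.49 to 11.70 in controls at 24 h, and 11.33 to 11.65 with Aa and 11.35 to 11.68 in controls at 48 h. The actin control probe sets, whose 3′ minus 5′ signal grows with RNA degradation, differed by 0.82 ± 0.16 with Aa and 0.79 ± 0.10 in controls at 24 h (SD, n = 3), and by 0.90 ± 0.22 with Aa and 0.78 ± 0.19 in controls at 48 h. The part of these shifts in the results below was not tested. In bulk RNA, fewer cells of a type and less RNA per cell cannot be told apart.

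The antioxidant response element has the core TGACNNNGC, where N is any base. It was searched on both strands (GCNNNGTCA on the other) in 300 bases around annotated gene starts, 250 before and 50 from the start on, as RefSeq gives them for GRCh38.p14. These windows exist for 7 of the 9 genes, 10 windows in all; PRDX1 and HMOX1 were not searched. The core stood in 4 of the 10 windows, those of 3 of the 7 genes. Over all genes it stood in 13.3% of 35116 windows and for 16.1% of 27305 genes with a window. The 4 windows that hold the core are shown. They belong to KEAP1, called higher with Aa at both times, to TXNRD1, called higher at 24 h only, and to GCLM, called at neither time. Whether the core bears on these calls was not tested. The windows run 5′ to 3′ along the gene, with the core in capitals. The KEAP1 window lies at chr19:10502722-10503021 on the minus strand, the TXNRD1 windows at chr12:104215529-104215828 and chr12:104286782-104287081 on the plus strand, and the GCLM window at chr1:93909381-93909680 on the minus strand.
KEAP1: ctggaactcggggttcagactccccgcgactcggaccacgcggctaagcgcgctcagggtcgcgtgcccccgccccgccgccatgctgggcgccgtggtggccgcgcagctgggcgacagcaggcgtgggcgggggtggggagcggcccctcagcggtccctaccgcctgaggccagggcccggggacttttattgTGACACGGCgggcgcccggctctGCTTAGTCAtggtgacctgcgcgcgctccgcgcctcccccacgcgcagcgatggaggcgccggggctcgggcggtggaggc
TXNRD1, first start: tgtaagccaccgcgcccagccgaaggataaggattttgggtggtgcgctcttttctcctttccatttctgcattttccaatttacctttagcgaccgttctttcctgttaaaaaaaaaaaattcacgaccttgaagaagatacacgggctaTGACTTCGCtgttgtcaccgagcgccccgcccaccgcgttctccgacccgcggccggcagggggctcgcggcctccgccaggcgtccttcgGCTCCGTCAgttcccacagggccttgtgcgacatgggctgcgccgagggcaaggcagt
TXNRD1, second start: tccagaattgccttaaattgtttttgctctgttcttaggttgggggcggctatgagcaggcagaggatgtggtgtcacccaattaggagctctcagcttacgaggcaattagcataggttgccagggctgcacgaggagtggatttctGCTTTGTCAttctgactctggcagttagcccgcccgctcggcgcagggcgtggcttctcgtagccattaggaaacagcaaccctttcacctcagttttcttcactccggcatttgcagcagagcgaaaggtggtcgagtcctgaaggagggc
GCLM: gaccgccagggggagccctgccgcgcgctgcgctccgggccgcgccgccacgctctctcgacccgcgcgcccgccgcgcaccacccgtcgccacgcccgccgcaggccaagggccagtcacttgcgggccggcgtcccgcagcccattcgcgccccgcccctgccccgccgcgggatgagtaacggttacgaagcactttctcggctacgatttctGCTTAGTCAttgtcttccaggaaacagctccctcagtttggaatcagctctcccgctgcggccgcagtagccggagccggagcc
Read on the strand where it starts with TGAC, the core was TGACTAAGC in both GCLM and KEAP1. The other KEAP1 match was TGACACGGC, and the TXNRD1 matches were TGACTTCGC, TGACGGAGC and TGACAAAGC. No 2 matches in a window overlapped. The other KEAP1 window, chr19:10503307-10503606 at the outermost start of the gene, did not hold these letters. Neither did the windows of NFE2L2, TXN, SRXN1 and GCLC. Sequence outside the windows was not searched. A match is a description of the letters only.

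With Aa, 2 of the 9 genes rose at each time and 0 fell. KEAP1 and TXNRD1 rose at 24 h, by 1.58-fold and 1.43-fold, and KEAP1 and HMOX1 at 48 h, by 1.71-fold and 1.88-fold. Genes are said to rise or fall where limma's adjusted p (Benjamini-Hochberg over all 10791 genes tested) was under 0.05. Of all genes tested 10.3% rose and 12.8% fell at 24 h (23.1% changed), and 17.8% rose and 20.1% fell at 48 h (37.8% changed). The share of members that changed, 2 of 9 (22.2%), was near that of all genes at 24 h and below it at 48 h. With the replicate number also in the model, 4 of the 9 rose at 24 h and 3 at 48 h, and 0 fell. In that model 18.5% of all genes tested rose at 24 h and 26.7% at 48 h. On the brightest probe sets the log2 difference, Aa minus control, was above 0 for 9 of 9 genes at 24 h, with a median of 0.26. At 48 h it was above 0 for 8 of 9, with a median of 0.16. With the mean of a gene's probe sets TXN read -0.0891 at 24 h and GCLC -0.0045 at 48 h, so these counts depend on the probe set. The share of all genes above 0 was not counted. Over all genes tested the median was -0.02 at 24 h and -0.0009 at 48 h. All 3 Aa arrays lay above all 3 control arrays for KEAP1, TXNRD1, GCLC and HMOX1 at 24 h, 4 of 9, and for KEAP1, TXNRD1 and HMOX1 at 48 h, 3 of 9. That held for 17.8% and 23.5% of all genes tested.

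**Figure D1:**
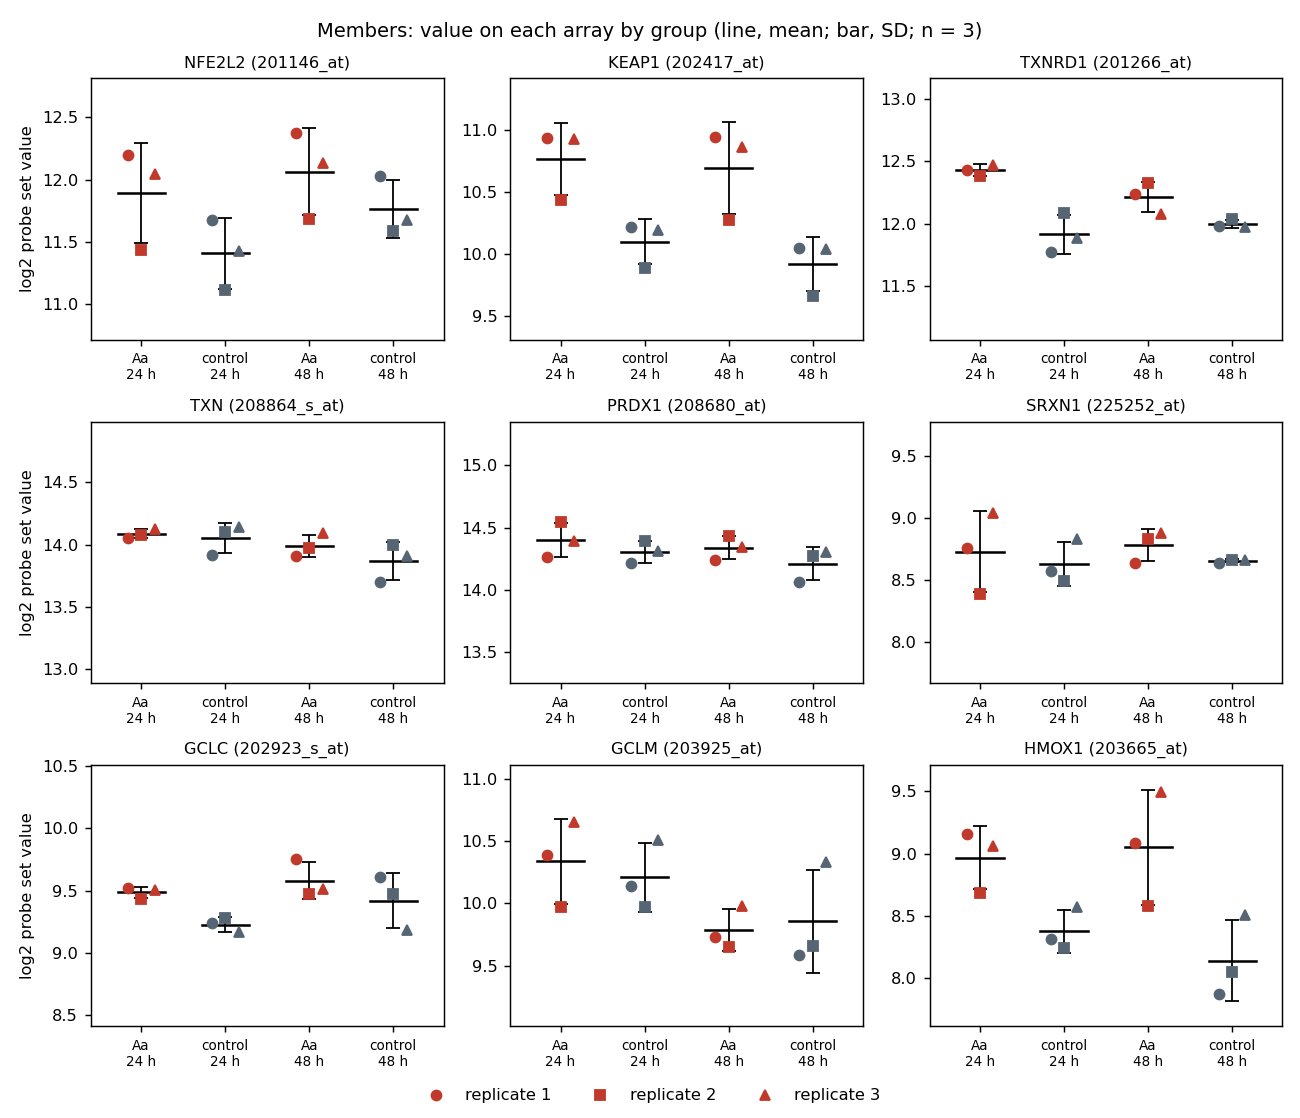
Log2 probe set value (vertical axis, a span of 2.1 in each panel) of each member's representing probe set on the 12 arrays, with Aa and control at 24 h and then at 48 h along the horizontal axis; symbols give the replicate number, lines the mean and bars the SD (n = 3). The Aa points of KEAP1 and HMOX1 lie above the control points at both times, while those of TXN, PRDX1 and SRXN1 overlap with them.

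**Figure D2:**
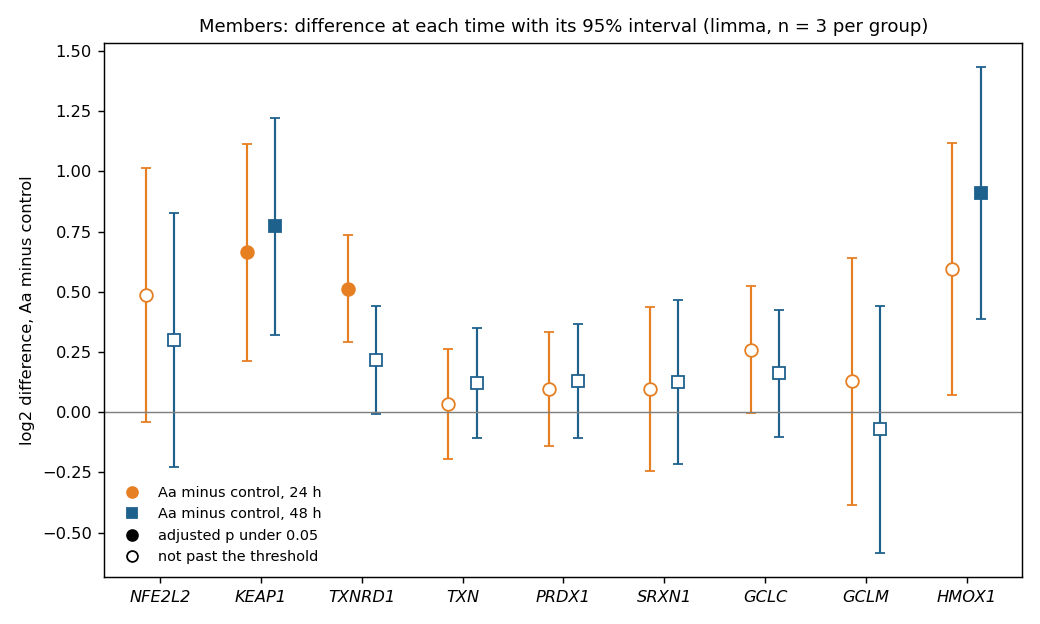
Log2 difference, Aa minus control, of each member at 24 h (circles) and 48 h (squares) with its 95% interval from the limma model (n = 3 arrays per group); filled symbols passed the adjusted p of 0.05. KEAP1 is filled at both times, TXNRD1 at 24 h and HMOX1 at 48 h.

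Among the regulators, KEAP1 (GRCh38.p14, chr19:10486125-10503356) was higher with Aa in every pair. Its log2 values were 10.93, 10.43 and 10.93 on the Aa arrays 1 to 3 at 24 h, against 10.22, 9.89 and 10.19 on the control arrays. At 48 h they were 10.94, 10.27 and 10.86 with Aa, against 10.05, 9.67 and 10.04 in controls. The groups did not overlap at either time, and array 2 was the lowest in 4 of 4 groups. KEAP1 rose by 0.66 at 24 h (SE 0.20, adjusted p = 0.0383 in limma) and by 0.77 at 48 h (SE 0.20, adjusted p = 0.0134). When the model also held the replicate number (the block), so that pairs were compared within themselves, the adjusted p was 0.000374 and 9.45e-05. Without the block the call depended on single arrays. At 24 h it was lost without Aa array 1, Aa array 3 or any one of the 3 controls, and without number 1 or 3 in all groups, with adjusted p from 0.0657 to 0.237. At 48 h it was lost without Aa array 1, Aa array 3 or control array 2, and without number 1 or 3, with adjusted p from 0.0518 to 0.13. Over all alternatives the difference itself ranged from 0.56 to 0.83 at 24 h, and from 0.65 to 0.98 for the later time.

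NFE2L2 (chr2:177230303-177264727) did not pass the threshold without the block. Its main probe set, 201146_at, read 12.20, 11.43 and 12.04 with Aa at 24 h, against 11.68, 11.11 and 11.42 in controls. At 48 h it read 12.37, 11.68 and 12.13 with Aa, against 12.03, 11.58 and 11.68 in controls. The groups overlapped at both times, although the Aa array was the higher of its pair in 3 of 3 pairs, and array 2 was again the lowest in 4 of 4 groups. The difference was 0.49 at 24 h (SE 0.24, adjusted p = 0.17 in limma) and 0.30 at 48 h (SE 0.24, adjusted p = 0.35). With the block NFE2L2 rose at both times (SE 0.09, adjusted p = 0.0035 and 0.0225). Of all genes tested 18.5% rose at 24 h and 26.7% at 48 h with the block. Without Aa array 2 of 24 h, the difference at 24 h was 0.72 and passed the threshold (adjusted p = 0.0456). The second NFE2L2 probe set, 1567013_at, had smaller differences than the first. Array 2 was the lowest in 4 of 4 groups here too. The Aa array was the higher in 1 of 3 pairs at 24 h and in 3 of 3 at 48 h. This probe set averaged 7.34 ± 0.21 with Aa and 7.32 ± 0.07 in controls at 24 h, and 7.44 ± 0.21 with Aa and 7.37 ± 0.23 in controls at 48 h (SD, n = 3 each). Its difference was 0.02 (SE 0.15) and 0.07 (SE 0.15), with adjusted p of 0.94 and 0.767 over 22515 probe sets, and 0.875 at 24 h with the block.

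TXNRD1 (chr12:104215779-104350307) encodes thioredoxin reductase 1, the selenoprotein that uses NADPH to reduce thioredoxin in the cytosol. Its values were 12.43, 12.38 and 12.47 with Aa at 24 h, against 11.78, 12.08 and 11.89 in controls. At 48 h they were 12.23, 12.32 and 12.08 with Aa, against 11.98, 12.04 and 11.97 in controls. The groups stood apart at both times, and the 3 Aa arrays at 24 h spread less (SD 0.05) than the 3 controls of that time (SD 0.16). TXNRD1 rose by 0.51 at 24 h (SE 0.10, adjusted p = 0.00492 in limma). At 48 h the difference was 0.22 (SE 0.10, adjusted p = 0.114; 0.0595 with the block). Leaving out any single array kept the call at 24 h, and leaving out number 1 or 3 in all groups, 4 arrays, ended it (adjusted p = 0.117 and 0.0835). The pair differences at 24 h were 0.66, 0.30 and 0.59, and at 48 h 0.25, 0.29 and 0.11, smaller than at 24 h in 3 of 3 pairs. The change between times, 48 h minus 24 h, was -0.30 (SE 0.14, adjusted p = 0.375), and did not pass the threshold.

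TXN, which encodes thioredoxin, the small dithiol protein that reduces disulfides, averaged 14.09 ± 0.04 with Aa and 14.05 ± 0.12 in controls at 24 h, and 13.99 ± 0.09 with Aa and 13.87 ± 0.15 in controls at 48 h. Its groups overlapped at both times. The 95% interval of the difference ran from -0.20 to 0.26 at 24 h and from -0.11 to 0.35 at 48 h. The second TXN probe set, 216609_at, had the opposite sign, with differences of -0.21 (SE 0.11, adjusted p = 0.21) and -0.11 (SE 0.11, adjusted p = 0.471). PRDX1, a peroxiredoxin that breaks down hydrogen peroxide and is recycled by thioredoxin, was higher on the Aa array in 3 of 3 pairs at each time, by at most 0.18. It averaged 14.40 ± 0.14 with Aa and 14.30 ± 0.09 in controls at 24 h, and 14.34 ± 0.10 with Aa and 14.21 ± 0.13 in controls at 48 h, and the groups overlapped. Its interval ran from -0.14 to 0.33 at 24 h and from -0.11 to 0.36 at 48 h. SRXN1 encodes sulfiredoxin, which repairs overoxidised peroxiredoxins. It averaged 8.73 ± 0.33 with Aa and 8.63 ± 0.18 in controls at 24 h, and 8.78 ± 0.13 with Aa and 8.66 ± 0.01 in controls at 48 h, with intervals from -0.24 to 0.44 and from -0.21 to 0.47. Each of these intervals, on the brightest probe set, excludes a difference of 1, which is a doubling, in either direction.

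GCLC and GCLM encode the catalytic and the modifier subunit of glutamate-cysteine ligase, the rate-limiting enzyme of glutathione synthesis. GCLC, on its brightest probe set 202923_s_at, read 9.52, 9.44 and 9.50 with Aa at 24 h, against 9.24, 9.28 and 9.17 in controls. At 48 h it read 9.75, 9.48 and 9.51 with Aa, against 9.61, 9.47 and 9.18 in controls. The groups stood apart at 24 h and overlapped at 48 h. The difference was 0.26 at 24 h (SE 0.12, adjusted p = 0.145 in limma; 0.055 with the block) and 0.16 at 48 h (SE 0.12, adjusted p = 0.315). The second probe set, 202922_at, gave 0.03 at 24 h (SE 0.13, adjusted p = 0.891) and -0.17 at 48 h (SE 0.13, adjusted p = 0.344), so the sign for GCLC at 48 h depends on the probe set.

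The 3 GCLM probe sets all read higher with Aa at 24 h and lower at 48 h on average, and none passed the threshold, against 22.6% of all probe sets tested that passed it at 24 h and 33.2% at 48 h. The brightest, 203925_at, averaged 10.34 ± 0.34 with Aa and 10.21 ± 0.28 in controls at 24 h, and 9.79 ± 0.17 with Aa and 9.86 ± 0.41 in controls at 48 h. For 234986_at the pair differences were 0.26, 0.31 and 0.32 at 24 h, and -0.42, -0.13 and -0.26 at 48 h, so that every pair had one sign at 24 h and the other at 48 h. The adjusted p of this probe set was 0.181 at 24 h, 0.185 at 48 h and 0.288 for the change between times. For 236140_at the differences were 0.33 (SE 0.19, adjusted p = 0.256) and -0.08 (SE 0.19, adjusted p = 0.791). As a gene, on 203925_at, GCLM was not called at either time, with adjusted p of 0.743 and 0.838, and its pairs disagreed in sign.

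**Figure D3:**
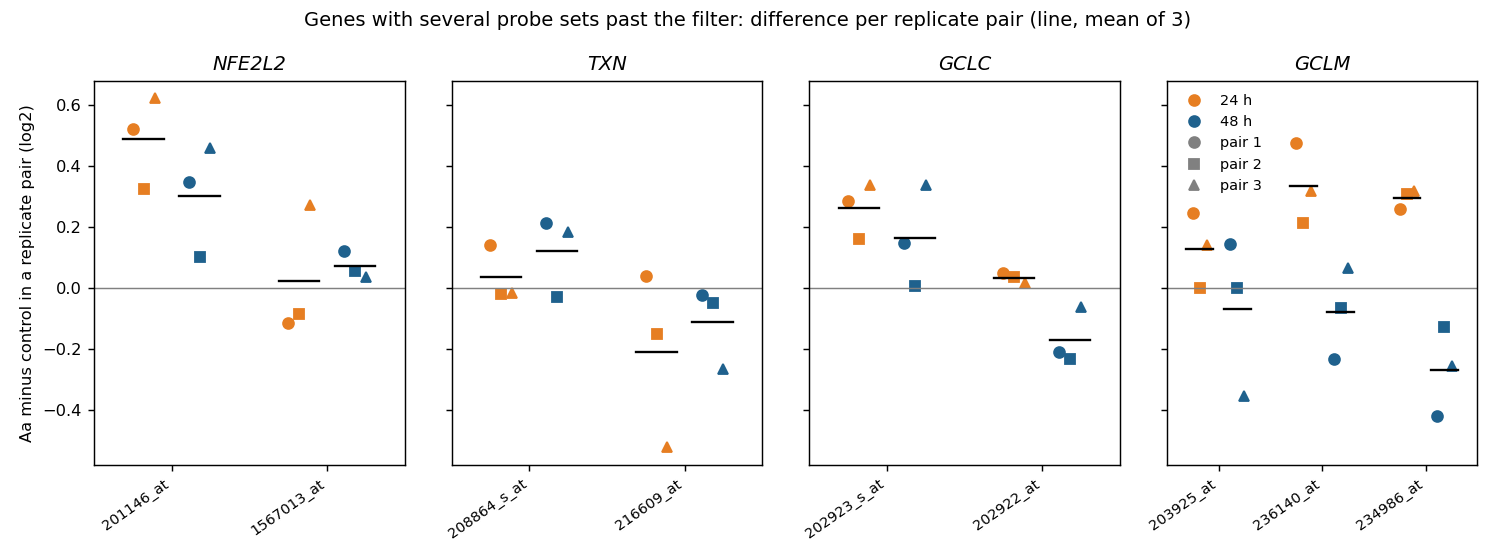
Pair differences (vertical axis, log2, Aa minus control of the same replicate number) for the 4 members with several tested probe sets, at 24 h (orange) and 48 h (blue); symbols give the pair and lines the mean of the 3. The 2 NFE2L2 and the 2 TXN probe sets differ from each other, and 234986_at of GCLM lies above 0 in every pair at 24 h and below 0 in every pair at 48 h.

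HMOX1 (chr22:35381096-35394207) encodes haem oxygenase 1, the inducible enzyme that breaks haem down to biliverdin, iron and carbon monoxide. It read 9.16, 8.69 and 9.06 with Aa at 24 h, against 8.31, 8.24 and 8.57 in controls. At 48 h it read 9.08, 8.58 and 9.50 with Aa, against 7.87, 8.05 and 8.51 in controls. All Aa arrays lay above all controls of their time, by the smallest gap at 48 h between Aa array 2 and control array 3. HMOX1 rose by 0.91 at 48 h (SE 0.24, adjusted p = 0.0123 in limma), the largest difference among the 9 genes. At 24 h the difference was 0.59 (SE 0.24, adjusted p = 0.0967), and with the block HMOX1 rose then too (SE 0.15, adjusted p = 0.0145). The call at 48 h held without any single array and was lost without number 1 in all groups (0.76, adjusted p = 0.174). The pair differences were 0.85, 0.44 and 0.49 at 24 h and 1.21, 0.53 and 0.99 at 48 h, larger at 48 h in 3 of 3 pairs, while the change between times was not past the threshold (0.32, SE 0.33, adjusted p = 0.708).

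Across times, 0 of the 9 genes passed the limma test for a change of the Aa effect between 24 h and 48 h, and 0 had an unadjusted p under 0.05; with the block 0 passed. Of all genes tested 0.825% passed, and 11% with the block. Between the control cultures, 48 h against 24 h, 0 of 9 passed and 0 had an unadjusted p under 0.05, against 0.5% of all genes. With the block NFE2L2 rose between the controls, by 0.36 (adjusted p = 0.0316), as 8.69% of all genes did, while 17.8% changed in either direction. Ordered by group mean on the brightest probe set, an Aa group was the highest for all 9 genes, the 24 h group for 5 and the 48 h group for 4. The same count over all genes was not made. On 216609_at of TXN and 202922_at of GCLC the 48 h controls were the highest. TXNRD1 had the order Aa 24 h, Aa 48 h, control 48 h and control 24 h, in which the 2 control groups were the only neighbours whose arrays overlapped. KEAP1 had the order Aa 24 h, Aa 48 h, control 24 h and control 48 h, and HMOX1 the order Aa 48 h, Aa 24 h, control 24 h and control 48 h; for both, arrays overlapped within Aa and within controls, and not between Aa and controls. For the other 6 genes every pair of neighbours in the order overlapped.

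The members did not all vary together. Over the 12 arrays Pearson's r of log2 values ranged from -0.50 to 0.90 over the 36 pairs of genes, with a median of 0.35. KEAP1 and HMOX1 had the highest r and GCLC and GCLM, on their brightest probe sets, the lowest. After group means were subtracted, NFE2L2 and KEAP1 had r = 0.91, and NFE2L2 and PRDX1 r = -0.93. The arrays share their replicate number in these values. On the brightest probe sets NFE2L2 and KEAP1 were lowest on array 2 in 4 of 4 groups, and TXN and PRDX1 on array 1 in 4 of 4 groups. On 216609_at TXN was lowest on array 1 in 2 groups and on array 3 in 2. At 24 h pair 2 had the smallest difference of the 3 pairs for 8 of the 9 genes, and at 48 h for 5. The same count over all genes was not made, so this cannot be read as particular to the members. Among all other genes tested, GNA11 (r = 0.98), NPLOC4 (r = 0.98) and NR2F6 (r = 0.97) were most like KEAP1 over the 12 arrays. TXNRD1 was most like GON7 (r = 0.96), LRP8 (r = 0.95) and GOLGA3 (r = 0.94). HMOX1 was most like TIMM44, SFSWAP and ALAS1 (r = 0.96, 0.96 and 0.95), and NFE2L2 most like GRAMD1A, QNG1 and HS1BP3 (r = 0.96, 0.94 and 0.94).

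The wider pathway was followed in 6 lists with 78 symbols, of which 72 had a probe set of their own and 65 were tested. Together, 2 of the 65 rose and 6 fell at 24 h, and 7 rose and 16 fell at 48 h. That is 12.3% and 35.4% changed, against 23.1% and 37.8% of all genes tested. With the block the counts were 5 up and 18 down at 24 h and 9 up and 20 down at 48 h, against 41.3% and 54.8% of all genes changed. The median difference of the 65 genes was -0.09 at 24 h and -0.06 at 48 h.

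Among 13 other regulators and partners of NRF2, 0 rose and 2 fell at 24 h, and 1 rose and 4 fell at 48 h. With the block 1 rose and 4 fell at 24 h, and 1 rose and 4 fell at 48 h, where 41.3% and 54.8% of all genes tested changed. NFE2L3, a relative of NRF2, had differences of -3.12 at 24 h and -3.20 at 48 h (SE 0.34, adjusted p = 0.00022 and 0.000108) and fell on 2 of 2 probe sets; its means with Aa, 3.30 and 3.63, lay below the filter value, against 6.42 and 6.83 in controls. Without probe sets of shared sequence its differences were -0.98 and -0.83 (adjusted p = 0.0297 and 0.0431). RBX1, the ring subunit of the cullin ligase that KEAP1 serves, fell at both times, with differences of -0.40 (SE 0.12, adjusted p = 0.0304) and -0.35 (SE 0.12, adjusted p = 0.037), and the call was lost without any of 4 single arrays at 24 h and 5 at 48 h, without any number (adjusted p up to 0.232 and 0.228), and with arrays of that time only (adjusted p = 0.0554 and 0.076). GSK3B, a kinase that marks NRF2 for degradation, fell by 0.67 at 48 h (SE 0.18, adjusted p = 0.0137), except without Aa array 3 of 48 h or without number 1 or 3 (adjusted p 0.0522 to 0.167). MAFF, a small MAF partner, averaged 8.87 ± 0.15 with Aa and 9.30 ± 0.19 in controls at 24 h, where the difference of -0.44 was not past the threshold (adjusted p = 0.12). At 48 h it rose by 0.68 (SE 0.19, adjusted p = 0.016), with 10.28 ± 0.42 with Aa and 9.60 ± 0.10 in controls. That call was lost without Aa array 1 or control array 2 of 48 h, without number 1 or 2, or with arrays of 48 h only (adjusted p 0.0512 to 0.158); without Aa array 3 of 48 h the difference at 24 h passed (adjusted p = 0.0455).

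In the thioredoxin and peroxiredoxin list, 0 of 13 genes rose and 1 fell at 24 h, and 1 rose and 3 fell at 48 h. With the block 2 fell at 24 h, and 2 rose and 5 fell at 48 h, where 41.3% and 54.8% of all genes tested changed. TXNIP, the inhibitor of thioredoxin, rose by 2.98 at 48 h (SE 0.54, adjusted p = 0.00194) on 3 of 3 probe sets. Its values at 48 h were 10.38, 10.08 and 10.04 with Aa, against 6.32, 6.33 and 8.92 in controls, so control array 3 stood above the other 2. At 24 h TXNIP averaged 10.61 ± 0.14 with Aa and 9.84 ± 0.22 in controls, so that the 48 h controls were the lowest of the 4 groups. The 24 h difference of 0.77 (adjusted p = 0.35) passed the threshold without control array 3 of 48 h (adjusted p = 0.00423) or with arrays of 24 h only (adjusted p = 0.0139), and the call at 48 h was lost without number 1 in all groups (adjusted p = 0.0743). NXN, which encodes the thioredoxin relative nucleoredoxin, fell at both times, with differences of -0.47 and -0.35 (SE 0.10). Its call at 24 h was lost without number 1 or 3 (adjusted p = 0.113 to 0.138), and at 48 h also without Aa array 1, Aa array 2 or control array 1 (adjusted p 0.0512 to 0.188). PRDX2, a cytosolic peroxiredoxin, fell by 0.34 at 48 h (SE 0.08) on its brightest probe set, and the mean of its 3 probe sets read -0.0067; the call was also lost without number 1 or 3 (adjusted p 0.0637 to 0.139). GLRX, a glutaredoxin, fell by 0.28 at 48 h (adjusted p = 0.0486), a call lost without any one of 10 of the 12 arrays or any number (adjusted p up to 0.204). It was also lost with arrays of 48 h only, centred arrays, quantile normalisation, or no probe sets of shared sequence (adjusted p = 0.0674, 0.0795, 0.0646 and 0.0537).

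In the glutathione list, 0 of 14 genes rose and 2 fell at 24 h, and 0 rose and 5 fell at 48 h. With the block 1 rose and 6 fell at 24 h, and 0 rose and 7 fell at 48 h. In that model 41.3% and 54.8% of all genes tested changed. SLC7A11, the cystine transporter that supplies glutathione synthesis, fell by 2.69 at 48 h (SE 0.52, adjusted p = 0.00255) on 2 of 2 probe sets. It read 4.11, 6.45 and 4.74 with Aa at 48 h, against 7.52, 8.66 and 7.18 in controls. At 24 h it averaged 6.39 ± 0.21 with Aa and 6.74 ± 0.07 in controls. The call was lost without number 1 (adjusted p = 0.0598). OPLAH, which recovers glutamate from oxoproline, fell at both times, with differences of -1.48 and -1.55 (SE 0.30), on a dim probe set that averaged 4.13 and 3.89 with Aa, against 5.61 and 5.44 in controls; the call at 24 h was lost without number 3 (adjusted p = 0.0779), and without number 1 the difference at 48 h was -0.90 and still passed. GPX8, a peroxidase of the endoplasmic reticulum, fell on 1 of its 2 probe sets, with differences of -0.63 and -0.75 (SE 0.12); without number 1 or 3 the adjusted p at 24 h was 0.0538 to 0.0615, and the mean of both read -0.01 and -0.21 and was not called. GPX4, which reduces lipid peroxides, fell by 0.40 at 48 h (SE 0.09, adjusted p = 0.00667), except without number 1 or 3 (adjusted p 0.0693 to 0.0873).

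Among 15 genes of detoxification and NADPH supply, 2 rose and 0 fell at 24 h, and 2 rose and 3 fell at 48 h. With the block 3 rose and 3 fell at 24 h, and 3 rose and 3 fell at 48 h, where 41.3% and 54.8% of all genes tested changed. ABCC3, which encodes an export pump for conjugates, rose by 0.89 (SE 0.15) and 1.04 (SE 0.15) on its brightest probe set. Of its 5 tested probe sets 3 had that sign, and when probe sets of shared sequence, marked in their names, were set aside it read -0.0469 and -0.11; the mean of its probe sets read 0.23 and 0.27 (adjusted p = 0.13 and 0.0571), and the call at 24 h was lost without number 1 (adjusted p = 0.0752). PIR, which encodes the iron-binding protein pirin, fell by 1.07 at 48 h (SE 0.19, adjusted p = 0.00157). At 24 h its difference was -0.50 (adjusted p = 0.0782), and it fell with the block (adjusted p = 0.0227) or without Aa array 2 of 24 h, Aa array 2 of 48 h or number 2 (adjusted p 0.0309 to 0.0446). ME1, the malic enzyme that makes NADPH in the cytosol, fell by 0.83 at 48 h (SE 0.15, adjusted p = 0.00171, and 0.056 without number 3). CBR3, a carbonyl reductase, rose by 0.59 at 48 h (SE 0.14, adjusted p = 0.00707, and 0.112 to 0.132 without number 1 or 3). It averaged 6.13 with Aa and 6.17 in controls at 24 h, and 6.28 with Aa and 5.70 in controls at 48 h. The 48 h controls were thus the lowest of the 4 groups. NQO1, the quinone reductase often used as an NRF2 readout, was singled out after its values were seen. It read 10.18, 10.40 and 10.64 with Aa at 48 h, against 10.64, 10.94 and 11.14 in controls, groups that overlapped by a small margin, and fell by 0.50 (SE 0.17, adjusted p = 0.0362). Its call was lost without Aa array 1, Aa array 2, control array 2 or control array 3 of 48 h, and without any of the 3 numbers (adjusted p 0.0697 to 0.146), as well as with arrays of 48 h only or without a filter (adjusted p = 0.076 and 0.071).

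Of 7 haem and iron genes 0 rose and 1 fell at 24 h, and 3 rose and 1 fell at 48 h. With the block 3 fell at 24 h, and 3 rose and 1 fell at 48 h, where 41.3% and 54.8% of all genes tested changed. HMOX2, the constitutive haem oxygenase, rose by 0.62 at 48 h (SE 0.10, adjusted p = 0.00103) on its brightest probe set, and read 0.16 without probe sets of shared sequence (adjusted p = 0.332). BLVRB, a biliverdin reductase, rose by 0.43 (SE 0.11, adjusted p = 0.0113; 0.135 without number 1), and TFRC, the transferrin receptor, by 0.74 (SE 0.22, adjusted p = 0.0245). The call for TFRC was lost without Aa array 2, Aa array 3 or control array 1 of 48 h, or without number 2 or 3 (adjusted p 0.0551 to 0.133). It was also lost with arrays of 48 h only, without a filter, and with the mean of its probe sets, 0.59 (adjusted p = 0.0522, 0.0585 and 0.0966). FECH, the last enzyme of haem synthesis, fell by 0.51 at 24 h (SE 0.15, adjusted p = 0.0289) on 1 of its 2 probe sets. Its call was lost without any one of the 3 Aa arrays or control arrays 2 and 3 of 24 h, or without number 2 or 3 (adjusted p 0.0607 to 0.226), and without a filter (adjusted p = 0.0532). The mean of its probe sets read -0.19 (adjusted p = 0.305), and it read 0.13 without probe sets of shared sequence. The superoxide dismutases SOD1 and SOD2 and catalase, CAT, were not called, with differences of -0.10, 0.28 and 0.12 at 24 h and 0.06, 0.13 and 0.24 at 48 h, and adjusted p in limma from 0.296 to 0.756.

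**Figure D4:**
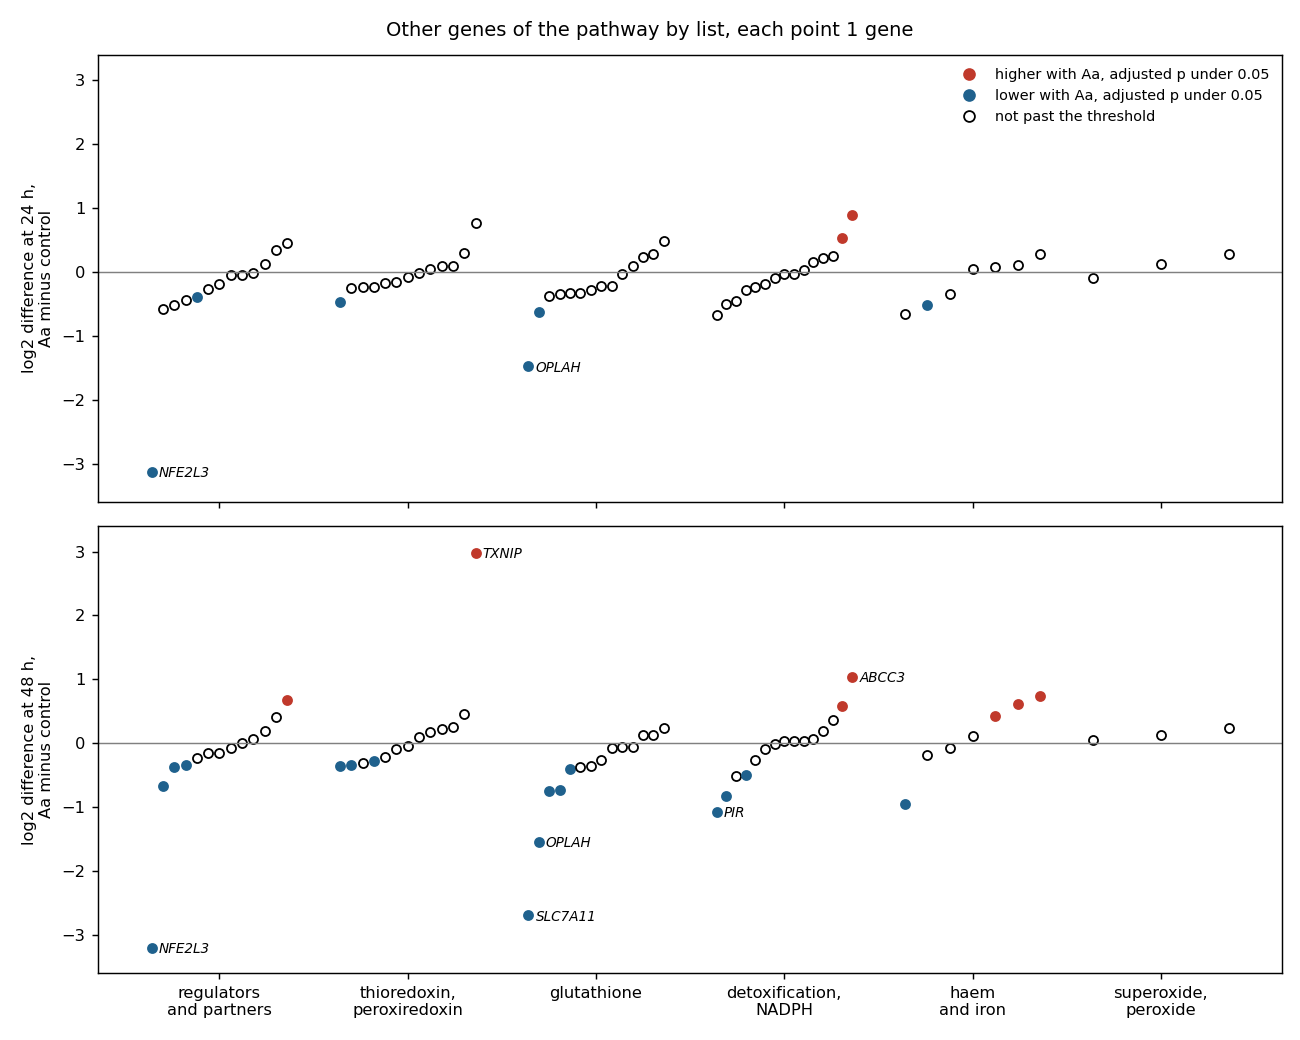
Log2 difference, Aa minus control (vertical axis), of the 65 tested genes of the 6 pathway lists at 24 h (top) and 48 h (bottom), each point 1 gene and genes sorted by value within a list; red points were higher and blue points lower with Aa at an adjusted p under 0.05, open points did not pass. At 24 h 2 points are red and 6 blue, and at 48 h 7 are red and 16 blue, with TXNIP the highest and NFE2L3 the lowest.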

How the data were processed

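The 12 arrays, Affymetrix probe set arrays of HK-2 RNA, form 4 groups of 3, and each value column was matched to a sample. Per the submitters' processing notes in the labels, the authors made the deposited log2 values with GCRMA, whose version is not given. They run from 0.82 to 16.25, with array medians from 2.93 to 3.01. For arrays, their number limits the precision. Of 54675 probe sets, 41097 had 1 gene symbol in GEO's platform annotation, 1801 had several and 11777 had no entry. Of the 41097, 41043 took the symbol that the GRCh38.p14 gene table gives for their gene, changed or not. The other 54 kept their symbol. Probe sets with a mean of at least 4 over all arrays were tested, each gene by its brightest, with limma 3.58.1 in R 4.3.3 (lmFit and eBayes without trend, 4 group means, 8 residual and 2.76 prior degrees of freedom, two-sided, Benjamini-Hochberg over 10791 genes or 22515 probe sets, threshold 0.05). The code was tested on simulated data.

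After group means were subtracted, arrays with the same replicate number correlated with r from 0.36 to 0.61 (18 pairs) and the other 36 pairs from -0.50 to -0.03, so the numbers were read as pairing the arrays, from the data and not from the labels. Alternatives were the replicate block, a variance trend, arrays of 1 time only, other filters, scalings and probe set choices, and left-out arrays. The members and lists were chosen with earlier results of these data known, so list counts are descriptions. Named list genes were up to 4 per list with the smallest p in either Aa comparison, and the 3 genes with the highest Pearson correlation over the arrays were named as most like a member. Of the list symbols 6 had no probe set of their own and were not analysed here.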

Additional observations from a re-analysis of the deposited data

Results flagged for a closer look

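Among the members' probe sets and the named genes, MAFF and 2 member probe sets had one sign of the Aa effect in all 3 pairs at 24 h and the other sign in all 3 pairs at 48 h. How often this occurred over all genes or probe sets tested was not counted, so it cannot be read as particular to these. Without the block, limma's test of the change between times did not pass the threshold for any of these. For MAFF the pair differences were -0.71 to -0.14 at 24 h and 0.12 to 1.16 at 48 h, a change of 1.12 (SE 0.27, unadjusted p = 0.00152, adjusted p = 0.093), which passed with the block (adjusted p = 0.0367). For the GCLM probe set 234986_at they were 0.26 to 0.32 at 24 h and -0.42 to -0.13 at 48 h, a change of -0.56 (SE 0.21, unadjusted p = 0.0203, adjusted p = 0.288). For the GCLC probe set 202922_at they were 0.01 to 0.05 at 24 h and -0.24 to -0.06 at 48 h, a change of -0.20 (SE 0.18, unadjusted p = 0.292, adjusted p = 0.694).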

How the results depend on the processing

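With the replicate block 4457 genes changed at 24 h (2494 without), 1183 between times (89 without) and 1919 between the controls (54 without), and 4 of the 9 members rose at 24 h and 1 between the controls. Between times 57 genes passed with centred arrays and 49 without probe sets of shared sequence. Without a filter 1 member was called at 24 h, since KEAP1 had adjusted p = 0.0859. Leaving out arrays, singly or by number, gave 536 to 2628 genes at 24 h and 1549 to 4146 at 48 h; number 1 left out gave 536 and 1549, number 3 gave 824 and 2322. It gave 0 to 255 between times and 1 to 361 between the controls. Of the members, 0 to 3 were called at 24 h, 0 to 2 at 48 h, and 0 between times or between the controls.

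Some signs turned, among them those of ABCC3 at both times and FECH at 24 h, which were called. With the mean of a gene's probe sets GCLC read -0.0045 at 48 h and TXN -0.0891 at 24 h. Without probe sets of shared sequence GCLC read -0.17 at 48 h, and TXN -0.21 at 24 h, -0.11 at 48 h and 0.18 between the controls; ABCC3 read -0.0469 and -0.11, and FECH 0.13 and 0.18, at 24 h and 48 h. With arrays left out the differences at 24 h ranged from -0.0303 to 0.31 (GCLM), -0.0588 to 0.27 (SRXN1), -0.0355 to 0.0785 (TXN), -0.10 to 0.11 (1567013_at), -0.024 to 0.0819 (202922_at), -0.0032 to 0.18 (BLVRB), -0.12 to 0.0367 (CBR3) and -0.0012 to 0.10 (HMOX2). At 48 h they ranged from -0.21 to 0.17 (GCLM), -0.0398 to 0.20 (1567013_at), -0.17 to 0.0523 (236140_at), -0.0356 to 0.10 (SOD1) and -0.19 to 0.39 (SOD2). The change between times ranged from -0.38 to 0.0385 (GCLM), -0.0573 to 0.32 (KEAP1), -0.42 to 0.0032 (NFE2L2), -0.0447 to 0.10 (PRDX1), -0.14 to 0.18 (SRXN1) and -0.0622 to 0.19 (1567013_at), and that between controls from -0.048 to 0.12 (SRXN1) and -0.0861 to 0.14 (1567013_at). The cause was not tested.

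For Aa against control the block turned the calls of NFE2L2, HMOX1 and PIR given with the results, and no other call of a member or named gene. With it MAFF, SLC7A11, ME1 and HMOX2 also passed between times, and NFE2L2, TXNIP, CBR3, HMOX2 and FECH between the controls. HMOX1 at 24 h also passed with arrays of that time only (adjusted p = 0.0434). The direction of KEAP1, TXNRD1, HMOX1 and NFE2L2 with Aa was the same under all 25 alternatives at both times.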
